A study of Oryza sativa Japonica Group with 3 samples.

Results

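Iron acquisition in the rice root was followed through 10 genes that encode 2 regulators, 4 enzymes of phytosiderophore synthesis and 4 transporters of metals or phytosiderophores, out of 35664 gene identifiers measured. They were taken from a list of identifiers of genes with these known roles, by a rule that uses no measured value. They are the regulators IRO2 and IRO3, the nicotianamine synthases NAS1, NAS2 and NAS3, the nicotianamine aminotransferase NAAT1, the exporter TOM1, the uptake transporter YSL15, its relative YSL2, and the ferrous iron transporter IRT1. RNA of isolated nuclei was compared with poly(A) RNA of whole tissue in the terminal 1 cm of roots of Nipponbare seedlings 7 days old, all grown with sucrose. The comparison asks how the RNA a gene has in the nucleus relates to the polyadenylated RNA it has in the tissue.

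The nuclear RNA came from the line p35S:OsNTF2, in which the 35S promoter drives a nuclear envelope tag that carries biotin. Nuclei were captured on streptavidin beads and ribosomal RNA was degraded. The poly(A) RNA came from the line p35S:HF-FLAG-OsRPL18, in which the same promoter drives a tagged ribosomal protein, and was captured on oligo(dT). Per the labels the medium was 0.5-strength MS for the nuclear sample and 1-strength MS for the poly(A) sample, whereas the design text of the series gives full strength for all samples. RNA pool, plant line, RNA selection and, by the labels, medium strength changed together and cannot be told apart. Each pool had 4 libraries, stated to be biological replicates; no label says that they were separate cultures, so the p-values measure the spread between these libraries.

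Grasses take up ferric iron by chelation. S-adenosylmethionine (SAM) is condensed to nicotianamine by nicotianamine synthase, an aminotransferase and the reductase DMAS1 turn nicotianamine into deoxymugineic acid, TOM1 releases this phytosiderophore into the soil, and YSL15 brings its iron complex back into the root. Rice can also take up ferrous iron directly through IRT1, and iron deficiency raises the transcripts of most of these genes in its roots, with the basic helix-loop-helix protein IRO2 as an activator and its relative IRO3 as a repressor.

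Values are RPKM, reads per kilobase of gene after division by the library's total, as the authors deposited them. RPKM divides by gene length, so levels may be set against each other between genes, but it is relative to each library's total and says nothing of RNA per cell; in these bulk samples fewer cells of a type and less RNA per cell cannot be told apart. Whole reads could be recovered from the RPKM. A nuclear library held between 1073588 and 2290278 reads on listed genes, and a poly(A) library between 19430872 and 29974184, on average 17.5-fold more. The lengths used by the counter, recovered with the reads, ran between 1136 nt for IRO3 and 2512 nt for YSL15, around the median of 1499 nt of all tested genes. Pearson's r of log2 values lay between 0.854 and 0.891 among nuclear libraries, between 0.991 and 0.995 among poly(A) libraries and between 0.619 and 0.691 across the pools. The 5 root markers examined were above 0 in the data, with a summed level of 717 to 1151 RPKM in nuclear libraries and 1909 to 2256 RPKM in poly(A) libraries. RCC3 carried most of that sum and, like LSI1, was lower in nuclear RNA, whereas the transcription factor genes SHR1 and SCR1 were higher (2.11 ± 0.17 and 1.93 ± 0.15 on the log2 scale) and LSI2 did not pass. The 5 shoot markers summed to 7.71 to 18.7 RPKM in nuclear libraries and 4.69 to 7.93 RPKM in poly(A) libraries, and the meristem gene OSH1 was listed at 0 in all 8 libraries. CAB2R and PSBS, the latter on 7 nuclear reads, were higher in nuclear RNA (0.73 ± 0.28 and 0.60 ± 0.18 on the log2 scale). CAB1R did not pass (0.61 ± 0.29), and RBCS and OSH1 were too low to be tested. The part of these marker differences in the results was not tested.

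The synthesis enzymes and IRT1 were higher in nuclear RNA, the exporter TOM1 was lower, and both regulators and YSL15 did not pass the test. Of the 10 genes, 9 had a mean of at least 1 RPKM in a pool and were tested with limma; YSL2 was below that level in both pools. At an adjusted p under 0.05, 5 genes were higher in nuclear RNA, where 33.1% of all 26928 tested genes were higher, and 1 was lower, where 30.0% of all tested genes were lower. Nuclear and poly(A) libraries held no shared range for 5 of the 9 genes, against 61.1% of all tested genes, so non-overlap was no more frequent here than in the background. The median log2 difference, nuclear minus poly(A), was 1.14 over the 9 genes and 0.08 over all tested genes. All log2 differences and folds are on the log2(RPKM + 1) scale, on which the change of weakly expressed genes looks smaller than it is. Without nuclear library 3, without poly(A) library 1 and without poly(A) library 3, 4 genes were higher in nuclear RNA, and without nuclear library 4 there were 6. Without nuclear library 1 and without nuclear library 3, 2 genes were lower.

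**Figure D1:**
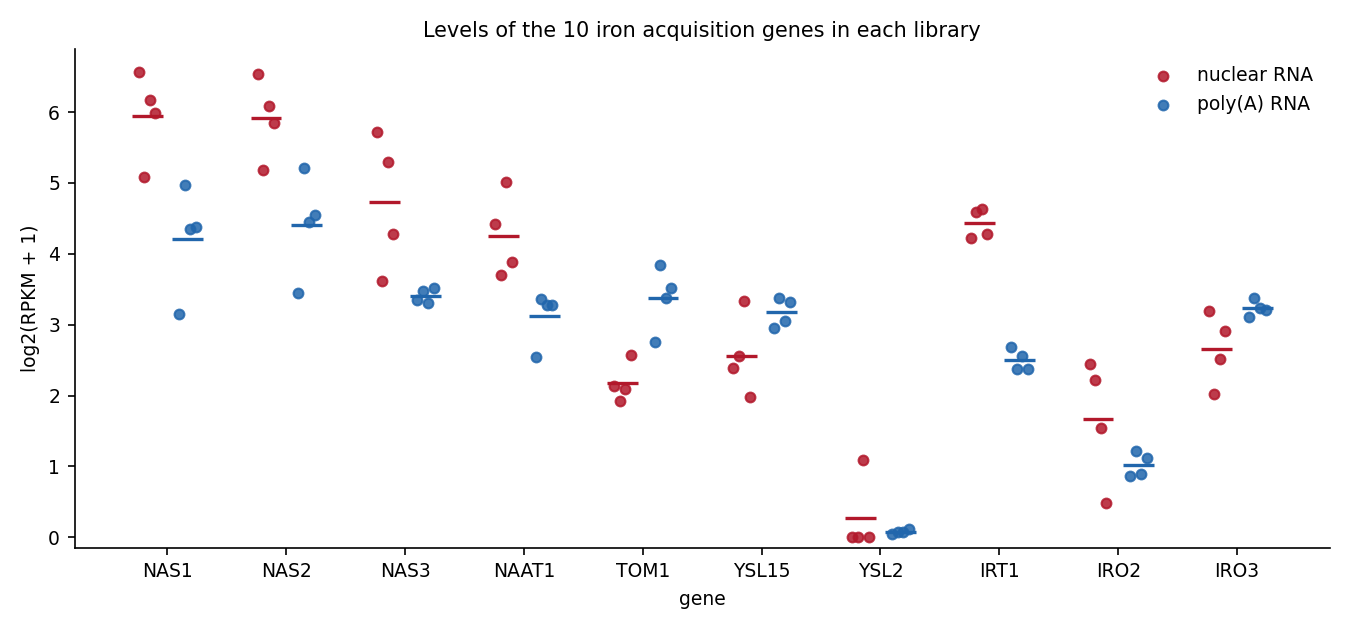
Level of each of the 10 genes in every library as log2(RPKM + 1), with the 4 nuclear libraries (red) left of the 4 poly(A) libraries (blue); bars are means of the plotted values. NAS1, NAS3, NAAT1 and IRT1 lie wholly higher in nuclear RNA, TOM1 lies wholly lower, and YSL2 is at 0 in 3 nuclear libraries.

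NAS1 (OS03G0307300), one of the enzymes that join SAM into nicotianamine, was the most abundant of the 10 genes in nuclear RNA. It had 93.3, 33.0, 71.2 and 62.3 RPKM in nuclear libraries 1 to 4, against 7.92, 30.4, 19.3 and 19.7 RPKM in poly(A) libraries 1 to 4. The pools did not overlap, but nuclear library 2 came within a few RPKM of poly(A) library 2. The means were 64.9 ± 25.0 RPKM in the nuclear pool and 19.3 ± 9.19 RPKM in the poly(A) pool (SD, n = 4 each), a log2 difference of 1.74 ± 0.43 (SE), or 3.34-fold (adjusted p = 0.00702, limma). These values rest on 511 nuclear and 2708 poly(A) reads.

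NAS2 (OS03G0307200), which does the same reaction, followed NAS1 closely. Its levels were 91.5, 35.3, 67.0 and 56.8 RPKM in nuclear RNA, against 9.88, 36.0, 20.8 and 22.5 RPKM in poly(A) RNA. Nuclear library 2 was lower than poly(A) library 2, so the pools overlapped. With means of 62.6 ± 23.4 RPKM in the nuclear pool and 22.3 ± 10.7 RPKM in the poly(A) pool (SD, n = 4 each), the log2 difference was 1.50 ± 0.40, or 2.83-fold (adjusted p = 0.0107, limma). NAS1 and NAS2 stand next to each other on chromosome 3 with 0 genes between them in the RefSeq gene order of assembly ASM3414082v1. They are near copies, and reads that could belong to either may have been shared out or lost by the counting; the ratio of NAS1 to NAS2 was 0.935 to 1.10 in nuclear libraries and 0.801 to 0.928 in poly(A) libraries.

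NAS3 (OS07G0689600), the nicotianamine synthase on another chromosome, had 51.6, 11.3, 38.3 and 18.5 RPKM in nuclear RNA, against 9.14, 10.1, 8.87 and 10.5 RPKM in poly(A) RNA. All nuclear libraries were higher, library 2 by less than 1 RPKM over the highest poly(A) library, and the spread lay almost wholly in the nuclear pool. The means were 29.9 ± 18.4 RPKM in the nuclear pool and 9.65 ± 0.766 RPKM in the poly(A) pool (SD, n = 4 each), a log2 difference of 1.32 ± 0.42, or 2.49-fold (adjusted p = 0.0228, limma). The call was lost without nuclear library 3 (1.13, adjusted p = 0.0580), without poly(A) library 1 (1.30, adjusted p = 0.0530) and without poly(A) library 3 (1.28, adjusted p = 0.0551). Summed over the 3 synthases, nicotianamine synthase RNA stood at 157 ± 66.0 RPKM in nuclear libraries and 51.3 ± 20.3 RPKM in poly(A) libraries (SD, n = 4 each).

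NAAT1 (OS02G0306401), the aminotransferase that commits nicotianamine to phytosiderophore synthesis, showed 20.5, 12.0, 31.3 and 13.8 RPKM in nuclear RNA, against 4.85, 9.31, 8.74 and 8.68 RPKM in poly(A) RNA. The pools did not overlap. Its log2 difference was 1.14 ± 0.31, or 2.20-fold (adjusted p = 0.0123, limma), between means of 19.4 ± 8.71 RPKM in the nuclear pool and 7.89 ± 2.05 RPKM in the poly(A) pool (SD, n = 4 each). DMAS1 (OS03G0237100), which completes the synthesis and is not among the 10 genes, had 17.1, 8.49, 30.2 and 10.9 RPKM in nuclear RNA, against 7.66, 11.6, 9.94 and 11.3 RPKM in poly(A) RNA. Its difference of 0.53 ± 0.35 did not pass (adjusted p = 0.218, limma), and nuclear library 2 lay lower than 3 of the poly(A) libraries.

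TOM1 (OS11G0134900), the transporter that exports deoxymugineic acid, stood on the other side. It had 3.40, 2.79, 3.25 and 4.96 RPKM in nuclear RNA, against 5.76, 13.4, 9.36 and 10.5 RPKM in poly(A) RNA. All nuclear libraries were lower than all poly(A) libraries, on 39 nuclear and 1883 poly(A) reads. TOM1 fell 2.29-fold in nuclear RNA, with a log2 difference of -1.20 ± 0.25 (adjusted p = 0.00300, limma) and means of 3.60 ± 0.943 RPKM in the nuclear pool and 9.76 ± 3.17 RPKM in the poly(A) pool (SD, n = 4 each). The summed nicotianamine synthases were 27.7 to 69.6 times TOM1 within a nuclear library and 4.68 to 5.69 times TOM1 within a poly(A) library.

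YSL15 (OS02G0650300), which imports the iron complex of deoxymugineic acid, had 4.23, 4.86, 9.09 and 2.96 RPKM in nuclear RNA, against 6.75, 9.37, 7.30 and 8.95 RPKM in poly(A) RNA. Nuclear library 3 lay inside the poly(A) range and the other nuclear libraries lay under it. The means of 5.28 ± 2.65 RPKM in the nuclear pool and 8.09 ± 1.26 RPKM in the poly(A) pool (SD, n = 4 each) gave a log2 difference of -0.61 ± 0.27 that did not pass (adjusted p = 0.0819, limma), with a 95% interval of -1.24 to 0.02. Without nuclear library 3 it passed, at -0.87 (adjusted p = 0.00477). It also passed with quantile normalization (-0.80, adjusted p = 0.0266) and with median centring (-0.77, adjusted p = 0.0335).

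YSL2 (OS02G0649900), known as a transporter of metal-nicotianamine complexes in the phloem, was near the limit of detection. Its 3 nuclear reads all lay in library 3, which had 1.13 RPKM where the other nuclear libraries were at 0, against 0.0329, 0.0508, 0.0517 and 0.0858 RPKM in poly(A) RNA on 12 reads. The ratio of pooled nuclear to pooled poly(A) reads per depth was 4.38 with a 95% exact counting interval of 0.794 to 16.2, so no difference was detectable at this depth. YSL2 lies close to YSL15 on chromosome 2, with 1 gene between them in the RefSeq order.

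IRT1 (OS03G0667500, named ZIP10 in the table), the transporter of ferrous iron at the root surface, had the largest difference relative to its standard error among the 9 tested genes. Its levels were 17.6, 23.0, 23.8 and 18.5 RPKM in nuclear RNA, against 5.41, 4.17, 4.89 and 4.18 RPKM in poly(A) RNA, and every nuclear library was more than 3 times the highest poly(A) library. The log2 difference was 1.94 ± 0.15, or 3.83-fold (adjusted p = 1.08e-05, limma), between 20.7 ± 3.11 RPKM in the nuclear pool and 4.66 ± 0.600 RPKM in the poly(A) pool (SD, n = 4 each). Its close relative IRT2, with 2 genes between them in the RefSeq order, had 0 nuclear reads and a mean of 0.134 RPKM in poly(A) RNA.

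IRO2 (OS01G0952800), the activator of the phytosiderophore genes, was among the weakest of the set. It had 4.47, 3.67, 1.92 and 0.391 RPKM in nuclear RNA, against 0.827, 1.32, 0.851 and 1.18 RPKM in poly(A) RNA. Nuclear libraries 1 to 3 were higher than the poly(A) range and nuclear library 4, with 1 read, was lower. The difference of 0.65 ± 0.40 did not pass (adjusted p = 0.182, limma), with an interval of -0.25 to 1.55 and means of 2.61 ± 1.82 RPKM in the nuclear pool and 1.04 ± 0.245 RPKM in the poly(A) pool (SD, n = 4 each). It passed without nuclear library 4, at 1.05 (adjusted p = 0.00466), and with voom on the recovered reads, at 1.20 (adjusted p = 0.0295). Its 42 nuclear and 259 poly(A) reads gave a pooled ratio per depth of 2.84, with a counting interval of 2.00 to 3.95 that leaves out the spread between libraries.

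IRO3 (OS03G0379300), the repressor, leaned the other way. Its levels were 8.10, 3.07, 4.69 and 6.55 RPKM in nuclear RNA on 36 reads, against 7.60, 9.37, 8.44 and 8.26 RPKM in poly(A) RNA on 1011 reads. Nuclear library 1 lay inside the poly(A) range and the others under it. The difference of -0.57 ± 0.24 did not pass (adjusted p = 0.0678, limma), with means of 5.60 ± 2.19 RPKM in the nuclear pool and 8.42 ± 0.730 RPKM in the poly(A) pool (SD, n = 4 each). It passed without nuclear library 1 (-0.75, adjusted p = 0.0176), with quantile normalization (-0.78, adjusted p = 0.0314) and with median centring (-0.73, adjusted p = 0.0321).

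The order of levels differed between the pools. In nuclear RNA NAS1 and NAS2 led, NAS3, IRT1 and NAAT1 followed, and a gap with no shared values separated NAAT1 from IRO3, YSL15, TOM1, IRO2 and YSL2. NAS1 exceeded 93.3% of all tested genes in nuclear RNA and 72.3% of them in poly(A) RNA. TOM1 exceeded 24.7% of tested genes in nuclear RNA and 55.1% in poly(A) RNA, where it ranked 3 of the 10, after NAS2 and NAS1. In poly(A) RNA the neighbours from NAS2 down to IRT1 overlapped in their libraries, IRT1 was clear of IRO2, and IRO2 was clear of YSL2.

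The wider pathway was described through 61 other iron homeostasis genes, of which 49 could be tested. Among them 8 were higher in nuclear RNA, against 33.1% of all tested genes, 25 were lower, against 30.0% of all tested genes, and 16 did not pass. The median log2 difference was -0.71. The genes ARD1, ZIFL5, YSL18, YSL10 and MIR reached 1 RPKM in 1 pool alone, and without these 5 the counts were 6 higher and 24 lower of 44. The balance depended on scaling: with RPKM rescaled without the 100 highest genes, 13 were higher and 17 lower, and with median centring 8 were higher and 30 lower.

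The enzymes listed for SAM synthesis and methionine salvage were lower in nuclear RNA, with 10 of 11 tested passing, against 30.0% of all tested genes, and a median of -2.05. Of the tested genes in the list, only SAMS1 and SAMS2 are annotated as SAM synthetases. The list also includes the formate dehydrogenase FDH, the adenine phosphoribosyltransferase APT1 and IDI4, annotated in the 1-aminocyclopropane-1-carboxylate synthase family. MTK2 passed narrowly, on 10 nuclear reads and with overlapping pools (adjusted p = 0.0456, limma). SAMS1, a SAM synthetase, had 319 ± 55.6 RPKM in the nuclear pool and 1124 ± 55.3 RPKM in the poly(A) pool (SD, n = 4 each; -1.83 ± 0.15, adjusted p = 1.37e-05, limma). MTN, the nucleosidase that opens methionine salvage, had 7.21 ± 1.81 RPKM in the nuclear pool and 72.3 ± 1.72 RPKM in the poly(A) pool (-3.18 ± 0.18, adjusted p = 2.19e-06, limma). The dioxygenase gene ARD1 had 0 reads in nuclear RNA against 1096 in poly(A) RNA, which made it at least 20.8-fold lower when the nuclear pool is set at 3 reads over its 4 libraries. It was tested only because of its poly(A) level, and 9 of 10 passed without it. SAMS2 was the exception in the list only in that it did not pass (-0.23 ± 0.13, adjusted p = 0.141, limma). It had 405 ± 44.6 RPKM in the nuclear pool and 475 ± 15.5 RPKM in the poly(A) pool. Its nuclear libraries (342 to 444 RPKM) all lay lower than its poly(A) libraries (461 to 497 RPKM). Every tested enzyme of this list thus had a negative difference, SAMS2 without passing, whereas NAS1, NAS2 and NAS3 had positive ones. These 3 synthases use SAM and release the methylthioadenosine that salvage recycles.

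Other aminotransferases annotated like NAAT1 did not move together. NAAT2 fell in nuclear RNA by 0.55 and NAAT5 by 1.22 on the log2 scale, NAAT4 did not pass (0.31 ± 0.19), and the related OS11G0644800 was higher by 0.86 ± 0.14 (adjusted p = 0.000879, limma). NAAT2 was the most abundant of them, with 55.3 ± 5.59 RPKM in the nuclear pool and 81.1 ± 4.35 RPKM in the poly(A) pool (SD, n = 4 each).

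Of 7 other regulators tested, 5 were lower in nuclear RNA (30.0% of all tested genes) and 1 was higher (33.1%). HRZ2, an iron-binding ubiquitin ligase that restrains the iron deficiency response, was the higher one, with 16.2 ± 0.969 RPKM in the nuclear pool and 6.12 ± 0.877 RPKM in the poly(A) pool (1.28 ± 0.13, adjusted p = 5.41e-05, limma). IDEF1 and IDEF2, which bind iron deficiency elements in promoters, differed by -1.01 ± 0.31 and -2.34 ± 0.15. The helix-loop-helix genes bHLH058, bHLH059 and bHLH060, activators that act upstream of IRO2, differed by -0.78 ± 0.29, -1.22 ± 0.20 and -1.59 ± 0.16. bHLH156, the partner of IRO2, did not pass (0.24 ± 0.18, adjusted p = 0.270, limma).

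Among 11 tested yellow stripe-like genes other than YSL15 and YSL2, 5 were higher in nuclear RNA (33.1% of all tested genes) and 1 was lower (30.0%). YSL18, a transporter of the iron complex of deoxymugineic acid in reproductive organs and phloem, was the extreme. It had 8.76, 5.74, 6.38 and 8.91 RPKM in nuclear RNA, against 0.239, 0.308, 0.320 and 0.194 RPKM in poly(A) RNA, a log2 difference of 2.72 ± 0.16 (adjusted p = 2.93e-06, limma). YSL18 and YSL10 were tested only because of their nuclear levels, since their poly(A) means were under 1 RPKM; without both, 3 of 9 were higher. YSL11, YSL10, YSL16 and YSL9 were higher by 1.45, 1.37, 0.99 and 0.87 on the log2 scale, and YSL14 fell by 0.86.

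Of 18 other transporters tested, yellow stripe-like genes included, 6 were higher in nuclear RNA (33.1% of all tested genes) and 4 were lower (30.0%). Among the remaining transporters FRDL1, which loads citrate into the xylem, was higher (0.65 ± 0.12, adjusted p = 0.00145, limma). The metal importers NRAMP5 and NRAMP1 and the TOM1 relative ZIFL7 fell by 0.60, 0.85 and 0.53 on the log2 scale. PEZ1, ENA1 and ZIFL5 did not pass (0.35, 0.14 and -0.71). Of 7 storage and organelle genes, the ferritins FER1 and FER2 and the vacuolar transporter VIT2 were lower by -1.06 ± 0.23, -1.70 ± 0.29 and -2.47 ± 0.36, and the other 4 did not pass; 3 of 7 stands near the 30.0% of all tested genes that were lower.

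**Figure D2:**
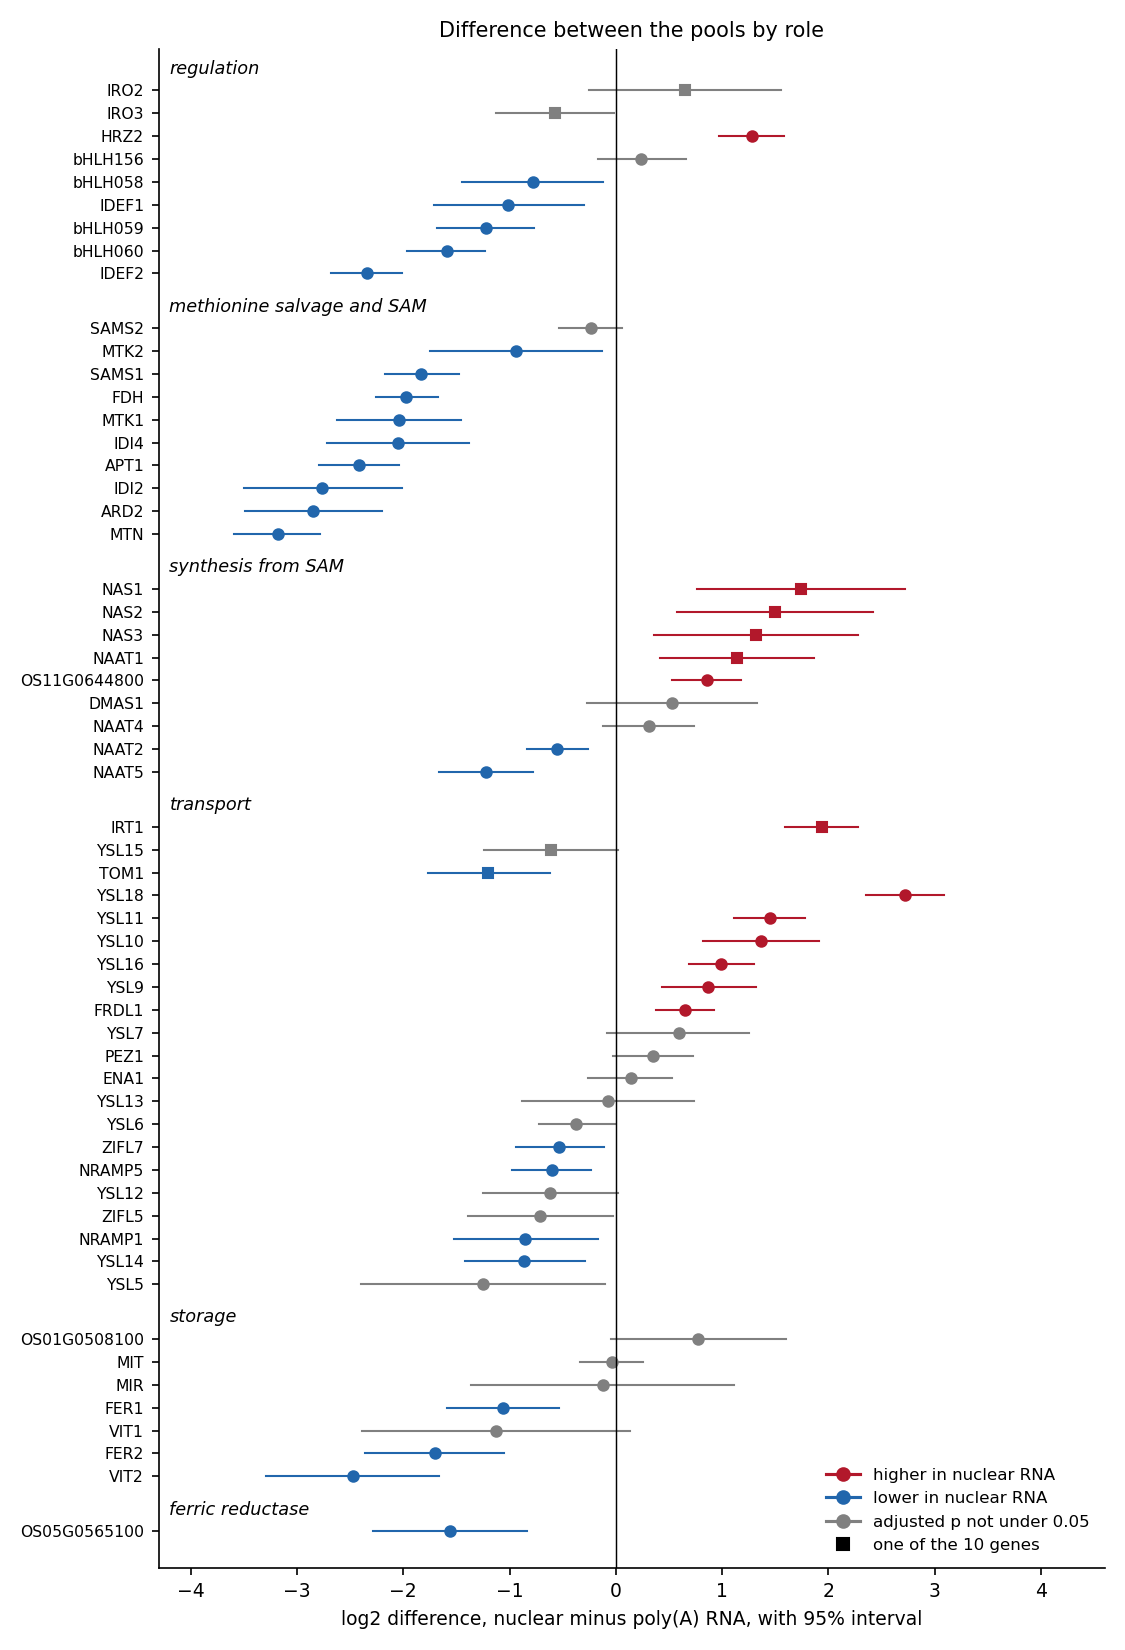
Log2 difference, nuclear minus poly(A) RNA, on the log2(RPKM + 1) scale with its 95% interval for each tested gene of the set (squares) and of the other iron homeostasis genes (circles), by role; ARD1, with 0 nuclear reads, is not drawn. Methionine salvage lies at negative values, while NAS1, NAS2, NAS3 and NAAT1 lie at positive ones and TOM1 at -1.20.

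Several of these genes varied widely between libraries of the same pool, and in the same libraries. In the poly(A) pool, library 1 was the lowest for 9 of 11 genes (the 10 and DMAS1), whereas it was the lowest for 22.4% of all tested genes. The 9 include the near copies NAS1 and NAS2, and the untested YSL2, which had 2 reads in library 1 and 2 in library 2. They also include IRO2, whose 0.827 RPKM in library 1 (59 reads) hardly differed from its 0.851 RPKM in library 3 (58 reads). Library 2 was the highest for 8 of the 11, against 22.9% of all tested genes. IRT1 ran opposite, highest in library 1 and lowest in library 2, and NAS3 hardly varied. Among the other iron homeostasis genes, library 1 was the lowest for 19 of 49, more than any other library, but library 4 was the highest for 17, library 2 for 14 and library 3 for 13.

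The SD of log2(RPKM + 1) over the poly(A) libraries was 0.76 for NAS1 and 0.73 for NAS2, larger than for 99.9% of 4454 and 99.8% of 4133 genes of like level (within 0.5 on the log2 scale). It was 0.46 for TOM1 (99.3%), 0.38 for NAAT1 (98.4%) and 0.25 for DMAS1, but 0.10 for NAS3 (51.5%). In nuclear RNA the SD was 0.62 for NAS1, 0.56 for NAS2 and 0.95 for NAS3, larger than for 97.5%, 95.7% and 99.0% of genes of like level, and 0.28 for TOM1 (8.89%). Nuclear library 2 was the lowest for 7 of the 11 genes, against 20.7% of all tested genes, among them all 3 synthases, NAAT1, DMAS1, TOM1 and IRO3. Of these, NAS1 and NAS2 are near copies, and TOM1 and IRO3 had only 12 and 8 reads in that library.

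**Figure D3:**
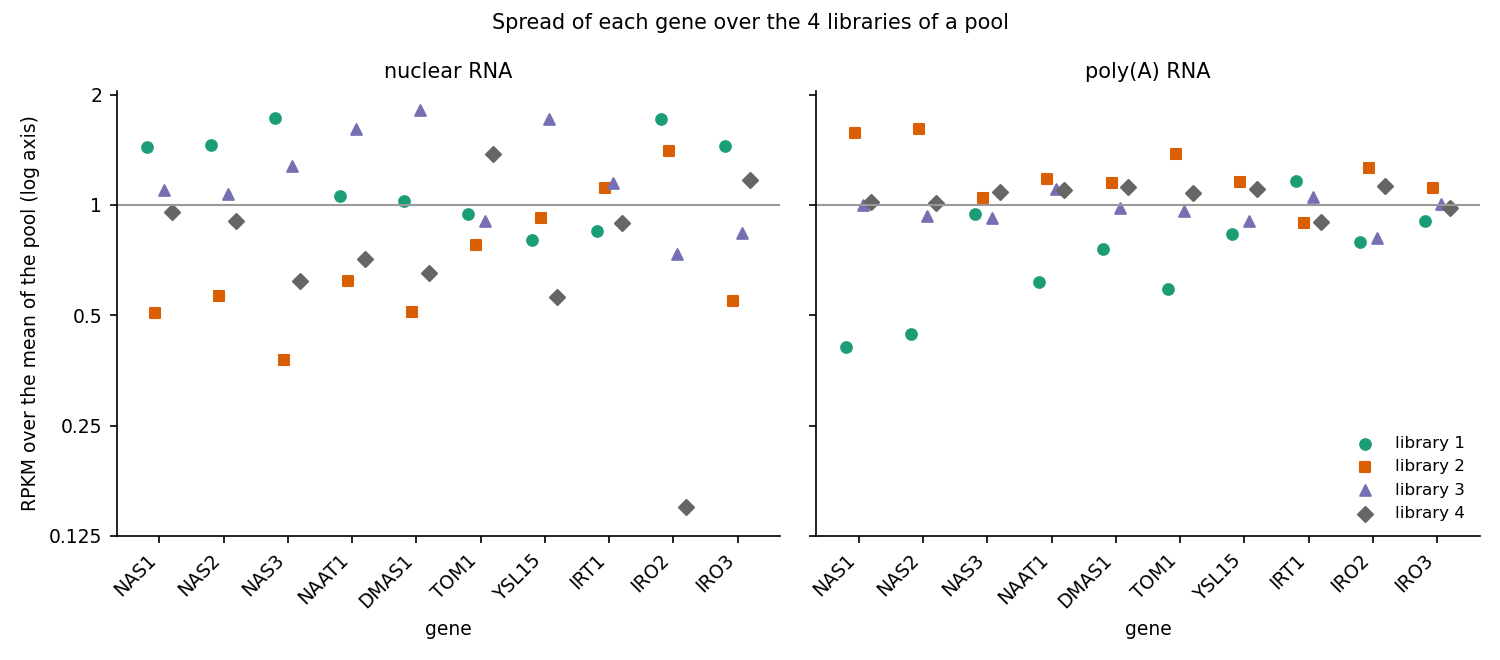
RPKM of each gene over the mean of its pool (log axis) in the 4 nuclear libraries (left) and the 4 poly(A) libraries (right); replicate numbers have no order and do not link the panels. Poly(A) library 1 (green circles) lies low for NAS1, NAS2, NAAT1, DMAS1 and TOM1 and high for IRT1, and nuclear library 2 (orange squares) lies low for the synthases.

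The ratio of poly(A) library 2 to poly(A) library 1 was examined after this pattern was seen, over the 16469 genes with a poly(A) mean of at least 5 RPKM. The cutoffs of 5, 1 and 10 RPKM were also chosen after the values were seen. IRT1, IRO2 and YSL2 lay under 5 RPKM. The median ratio was 1.0, and 7 genes exceeded a ratio of 2. NAS1 ranked 1 (3.84), NAS2 ranked 2 (3.64), TOM1 ranked 3 (2.33) and NAAT1 ranked 8 (1.92). Of the genes between, rank 4 was OS11G0134950 (2.31), whose reads ran with those of TOM1, and rank 5 was MTI4B (2.18), annotated as a metallothionein. DMAS1 ranked 51 (1.52) and YSL15 ranked 136 (1.39), while IRO3 (1.23) ranked 551 and NAS3 (1.11) ranked 2522. With genes of at least 1 RPKM included, 24212 in all, NAS1 ranked 3, NAS2 4, TOM1 35 and NAAT1 97. OS10G0161625 (4.41) and OS04G0188500 (3.96) ranked 1 and 2, and the TOM1 relative ZIFL9 ranked 5 (3.13). Ranks 6 to 9 were OS09G0368250, PSAF, OS06G0202400 and PAOB, at 3.09 each. IRO2 ranked 263 (1.59, on 61 reads in library 2 and 59 in library 1), and IRT1 ranked 22839 (0.771), near the bottom. With a mean of at least 10 RPKM, 11888 genes, NAS1 and NAS2 again ranked 1 and 2.

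**Figure D4:**
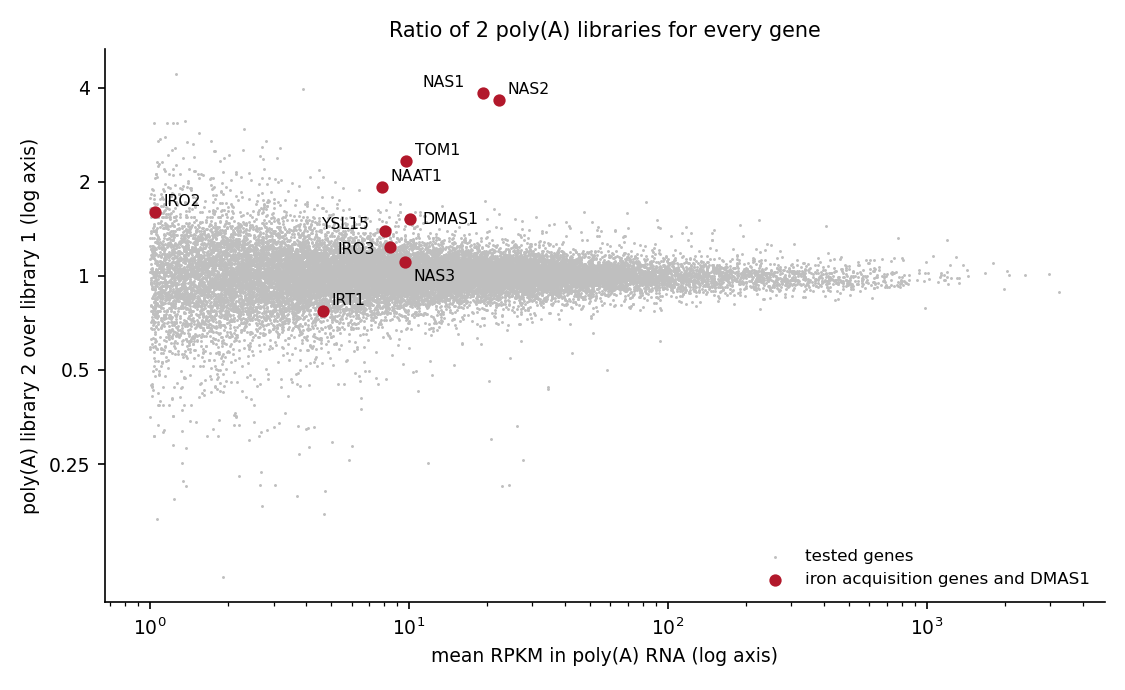
Poly(A) library 2 over poly(A) library 1 against the mean RPKM in poly(A) RNA, both on log axes, for tested genes of at least 1 RPKM (grey) and for the iron acquisition genes and DMAS1 (red). NAS1 (3.84), NAS2 (3.64), TOM1 (2.33) and NAAT1 (1.92) stand above the cloud, and IRT1 (0.771) lies under its middle.

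The excess of nuclear NAS1 and NAS2 was uneven over libraries: poly(A) library 2 nearly reached or passed nuclear library 2 in both genes, whereas poly(A) library 1 lay far under every nuclear library. Both calls held without each of these libraries in turn, with log2 differences between 1.39 and 2.03 for NAS1 and between 1.18 and 1.79 for NAS2 over all alternatives run.

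The gene most like a member was sought by the root mean square distance of log2(RPKM + 1) over the 8 libraries. NAS1 and NAS2 were each other's nearest gene (0.16), and the next gene was at 0.53 from NAS1 and 0.48 from NAS2. The gene nearest to TOM1 was OS11G0134950 (0.09), a hypothetical protein and the next line in the table. Its reads were 8, 12, 7 and 10 in nuclear libraries, where TOM1 had 9, 12, 8 and 10, and 281, 420, 446 and 495 in poly(A) libraries, where TOM1 had 324, 490, 503 and 566. The gene nearest to NAAT1 was OS03G0237201 (0.25), the line after DMAS1. It had 31, 24, 51 and 15 nuclear reads where DMAS1 had 31, 25, 51 and 15, and its poly(A) reads likewise ran close under those of DMAS1. The strand setting of the counting is not given in the sources used here, so reads of these hypothetical genes and of TOM1 or DMAS1 cannot be told apart. The line before IRT1, OS03G0667400, is annotated as similar to an iron regulated metal transporter and was also higher in nuclear RNA, at 9.65 ± 2.26 RPKM against 2.66 ± 0.159 RPKM in poly(A) RNA (SD, n = 4 each; 1.51 ± 0.18, adjusted p = 0.000123, limma). Its distance from IRT1 was 0.92, which includes its lower level. The nearest genes of YSL15, IRT1, IRO3, IRO2 and NAS3 lay at 0.15, 0.16, 0.17, 0.21 and 0.31, and none had an iron annotation. After OS03G0237201, the genes nearest to NAAT1 were annotated as a fatty acid elongase (0.30) and an F-box protein (0.31). A small distance was thus not particular to genes of this pathway.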

How the data were processed

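The authors deposited RPKM per gene and library, without raw counts. The submitters' processing notes name TopHat2 2.1.1, CASAVA 1.8, FastQC and the genome build IRGSP-1.0; which counter made the values, with which strand setting and annotation, is not given in the sources used here. Of 35694 lines, 35664 identifiers remained after repeated lines were counted once. The RPKM of all 33191 genes above 0 were whole multiples of 1 read (within 0.0001 of a read), and 99.8% of the lengths so recovered lay within 0.02 nt of whole numbers; on simulated data 98.4% of 32806 genes got their true reads.

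The pools were compared with limma 3.58.1 (lmFit, eBayes; R 4.3.3) on log2(RPKM + 1) over the 26928 genes with a mean of at least 1 RPKM in either pool (two-sided; Benjamini-Hochberg over all of them). Percentages of like-level genes and intervals of pooled reads (exact, 95%) describe these libraries; the latter cover counting error only. Sequencing reads carried no stated molecular identifiers.

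All 10 members are named. From the other iron genes, fixed by identifier or annotation words, those beside a member in the pathway or with a log2 difference of at least 1 were eligible. One listed identifier had another annotation and was left out, and HRZ1 was not analysed here. Members and lists were chosen with earlier results of these data known. RefSeq gene order (ASM3414082v1) served only for neighbours. Shoot base nuclei were not analysed here. Alternatives varied the pseudocount, filter, scaling, variance model, depth, libraries and replicate block.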

Additional observations from a re-analysis of the deposited data

Results flagged for a closer look

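Over 20 groups of 4 libraries (10 genes in each pool), 2 held a library whose gap to the nearest other exceeded Dixon's 95% critical value, where chance gives about 1 in 20. NAAT1 in poly(A) library 1 was at 4.85 RPKM, while the other poly(A) libraries lay between 8.68 and 9.31 RPKM. YSL2 in nuclear library 3 stood at 1.13 RPKM, on 3 reads, while the other nuclear libraries were at 0. With the others all at 0, any value in library 3 would be flagged, so the rate of 1 in 20 does not apply to YSL2.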

How the results depend on the processing

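The direction of the log2 difference held for all 9 tested genes under the 19 alternatives run (18 for IRO2, which the filter at 5 RPKM removed), and the calls of NAS1, NAS2, NAAT1, TOM1 and IRT1 held in each. The 5 higher genes became 6 with voom, and 4 to 6 when 1 library was left out. The 1 lower gene became 3 with quantile normalization and with median centring, and 1 to 2 when 1 library was left out; the added genes were IRO3 and YSL15. Of the other iron homeostasis genes, 8 were higher and 25 lower; 13 and 17 when RPKM were rescaled without the 100 highest genes, 12 and 17 with equal sums, and 8 and 30 with median centring. The median over all tested genes was 0.33 when rescaled without the 100 highest genes, 0.30 with equal sums, -0.08 with median centring and 0.08 in the fit reported above. In that order, 62.8%, 61.5%, 45.9% and 52.5% of calls were higher in nuclear RNA. The medians of the other alternatives lay between -0.01 without a filter and 0.14 with voom. With the replicate block, 5 genes were higher and 1 lower, as without it; deviations of same-numbered libraries correlated at -0.0476 to 0.00922, so the numbers were not taken to pair libraries. The nuclear depth limits TOM1, IRO2, IRO3 and YSL2, with 3 to 42 nuclear reads. Causes were not tested.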
